A study of Homo sapiens with 12 samples.

Results

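The genes described here are ATF4 and 9 genes of the stress response that it controls: ATF5, ASNS, TRIB3, DDIT3, DDIT4, STC2, CHAC1, CEBPG and NUPR1. They were chosen by name, and 9 of the 10 were found among the 13881 genes of the deposited table; NUPR1, which encodes a small stress-induced chromatin protein (GRCh38 chromosome 16, 28532708 to 28539174, minus strand), was not analysed here. All 9 also passed the filter on low values (at least 1 FPKM in at least 3 libraries) and were tested among 13353 genes. FPKM scales the number of sequenced fragments by transcript length and by library size, so that levels of different genes can be compared per length.

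RNA was sequenced from KG-1 and MOLM-14 cells, both established lines of human acute myeloid leukaemia, that had spent 96 h with ASLAN003, an inhibitor of the pyrimidine synthesis enzyme dihydroorotate dehydrogenase (DHODH), or with its solvent DMSO. The 4 groups were KG-1 with DMSO, KG-1 with ASLAN003, MOLM-14 with DMSO and MOLM-14 with ASLAN003, with 3 libraries each and no genetic change named in the labels. The sources used here do not give the dose, and each line stands for 1 leukaemia. The labels do not say that the libraries came from separate cultures, so the p-values measure only how much these libraries vary, which may be technical variation.

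Cells answer amino acid shortage, unfolded protein in the endoplasmic reticulum, haem shortage and mitochondrial stress by phosphorylating the translation initiation factor eIF2. General protein synthesis then falls, while short reading frames upstream in the ATF4 mRNA allow more ATF4 protein to be made. ATF4, usually paired with a C/EBP protein, binds C/EBP-ATF response elements and turns on genes of amino acid supply, redox balance and feedback control. ATF4 protein is thus set largely by translation, which RNA sequencing does not measure.

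Promoters of the genes whose RNA is described were searched for the letters of the element that ATF4 and C/EBP proteins bind. RefSeq promoter windows (GRCh38.p14, 300 bases each, mostly before the start) were found for all 9 measured genes, 17 windows in all. The letters TGATGNAA, on either strand, occurred in 3 of these 17 windows, those of ASNS, CHAC1 and CEBPG, and in 3.62% of all 35116 windows (4.46% of genes). The matches with their flanks are printed 5′ to 3′ on the gene's strand, with the matching letters in capitals.
ASNS (chr7:97872458-97872487, minus strand, 79 to 50 bases before the start): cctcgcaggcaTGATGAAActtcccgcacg
CHAC1 (chr15:40953251-40953280, plus strand, 220 to 191 bases before the start): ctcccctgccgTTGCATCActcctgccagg
CEBPG (chr19:33374060-33374089, plus strand, 53 to 24 bases before the start): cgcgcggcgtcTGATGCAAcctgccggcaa

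DDIT4 is shown because it fell in both lines and is also known as a hypoxia gene. The letters ACGTG, the core bound by hypoxia-inducible factors, were found on either strand in windows of DDIT4 and ATF4, and in 21.4% of all windows (24.9% of genes). The DDIT4 stretch runs to the last base before the annotated gene, with ACGTG in capitals. A match of letters is a description and does not show binding.
DDIT4 (chr10:72273674-72273919, plus strand): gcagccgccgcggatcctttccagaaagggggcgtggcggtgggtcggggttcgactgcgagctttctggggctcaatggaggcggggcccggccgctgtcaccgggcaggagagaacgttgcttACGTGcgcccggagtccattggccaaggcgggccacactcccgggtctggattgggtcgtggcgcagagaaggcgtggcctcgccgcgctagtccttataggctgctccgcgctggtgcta

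Depth was estimated from the steps of low values at 17500000 to 18800000 fragments per library. Replicates differed by a median SD of 0.129 (DMSO) and 0.155 (ASLAN003) on the log2 scale for KG-1, and of 0.177 and 0.271 for MOLM-14. MOLM-14 ASLAN003 replicate 1 stood apart on the second principal component (16.3% of the variance), at 36.2 against 14.6 and 9.37 for the other two of its group. All 7 myeloid markers were listed, with CD33 and LYZ at 26.2 and 91.7 FPKM or more in every group mean. No library exceeded 0.17 FPKM for the progenitor marker CD34 or 0.22 FPKM for the T cell marker CD3D. The progenitor marker KIT reached 0.39 FPKM in KG-1 and 4.07 in MOLM-14. The B cell marker CD79A had means of 1.32 FPKM in KG-1 DMSO and 6.74 in KG-1 ASLAN003, and reached 0.45 in MOLM-14. Summed granulocyte markers (5 of 6 listed) ranged from 3886 to 4253 FPKM over KG-1 DMSO libraries and from 27079 to 31532 with ASLAN003, and in MOLM-14 from 1156 to 1373 and from 1681 to 4377. S100A8 and S100A9 made up most of the mean sums with ASLAN003, whereas the granulocyte marker ELANE had lower means with it (3031 and 962 FPKM in KG-1, 1115 and 606 in MOLM-14), as did the myeloid marker MPO (160.3 and 37.9, and 20.8 and 4.83). Summed monocyte markers (5 of 7 listed) were 54.6 to 65.3 and 310 to 419 FPKM in KG-1, and 46.3 to 48.3 and 99.5 to 136 FPKM in MOLM-14. CD33 had means of 26.5 FPKM with DMSO and 26.2 with ASLAN003 in KG-1, and of 40.4 and 43.5 in MOLM-14. The granulocyte and monocyte sums, ELANE and MPO moved with the treatment in every comparison of ASLAN003 with DMSO below. Their part in the results was not tested. DHODH itself changed by -0.48 ± 0.20 on the log2 scale in KG-1 (adjusted p = 0.0836) and by -0.23 ± 0.20 in MOLM-14 (adjusted p = 0.509).

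With ASLAN003, most ATF4 response genes were lower in KG-1 and 1, TRIB3, was higher. Of the 9 genes, 6 fell (ATF4, ATF5, ASNS, DDIT4, STC2 and CHAC1), TRIB3 rose, and DDIT3 and CEBPG did not pass the test (limma, Benjamini-Hochberg adjusted p under 0.05 over all tested genes, termed called). Of all tested genes, 33.7% were called in KG-1, 19.4% higher and 14.3% lower. In MOLM-14, 2 of the 9 fell (DDIT4 and STC2) and none rose by limma (5 lower and 1 higher at an unadjusted p under 0.05), against 13% of all tested genes called, 9.69% higher and 3.33% lower. The median log2 change of the 9 was -0.77 in KG-1 and -0.34 in MOLM-14, and that of all tested genes was 0.05 and 0.08. The 3 ASLAN003 and 3 DMSO libraries did not overlap for 8 of the 9 genes in KG-1 (55.9% of all tested genes, 31.4% higher and 24.5% lower) and for 4 of the 9 in MOLM-14, each with lower treated libraries (25.9% of all tested genes in either direction, 8.17% lower). Over 22 alternative settings of the analysis, 5 to 8 members were called in KG-1 and 2 to 4 in MOLM-14. In such bulk samples, fewer cells that express a gene and less RNA per cell cannot be told apart.

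**Figure D1:**
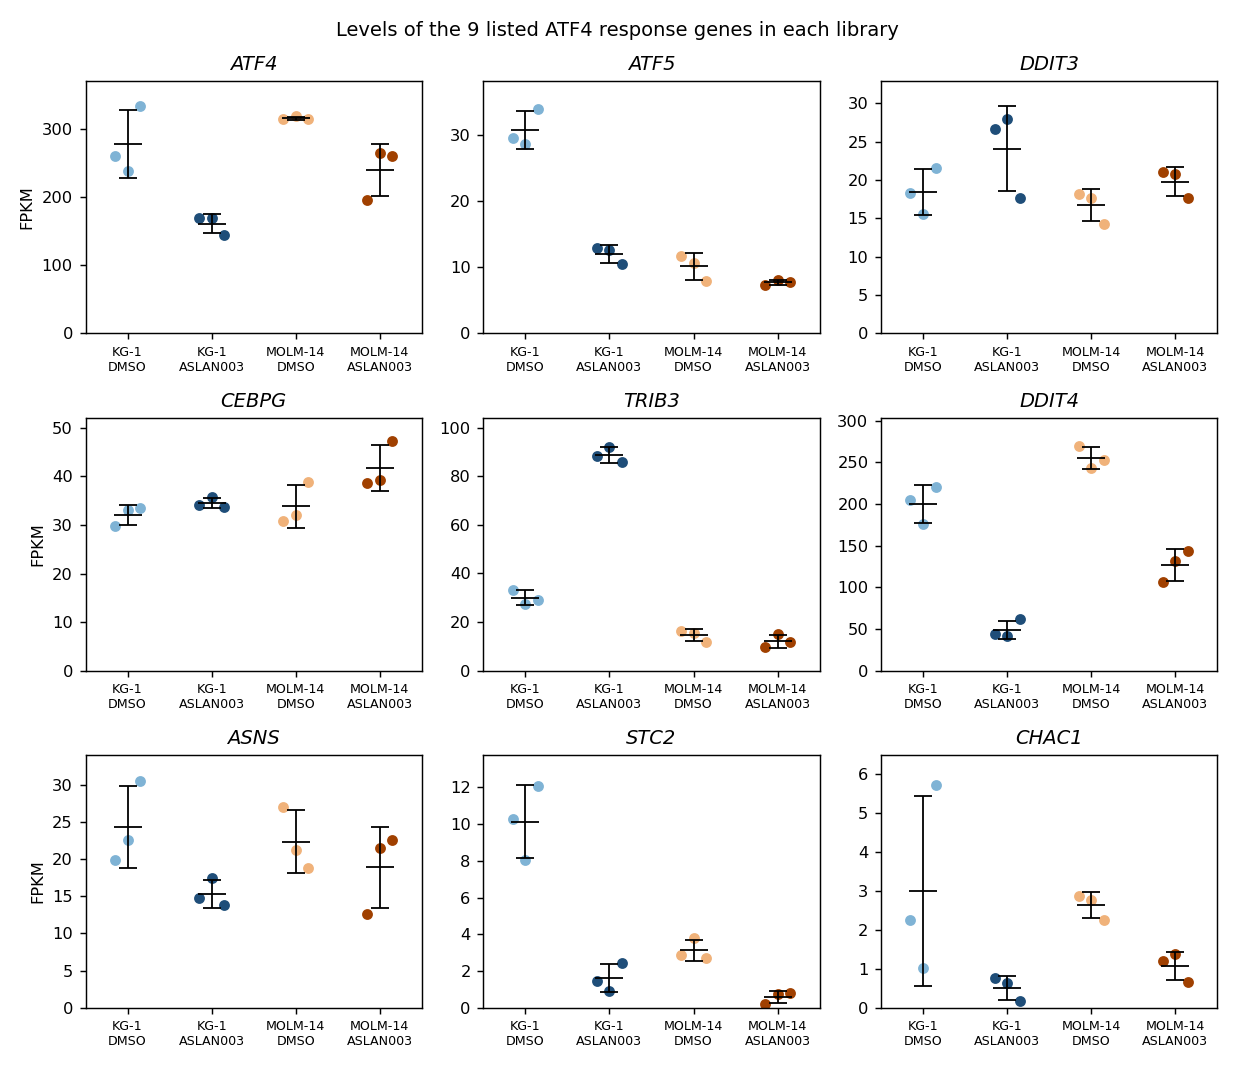
FPKM (linear axes from 0) of the 9 measured ATF4 response genes in each library of the 4 groups, with the mean and SD of 3 libraries. TRIB3 stands at 85.88 to 92.12 FPKM in KG-1 ASLAN003 and at most 33.37 in any other library, whereas DDIT4 is lower with ASLAN003 in both lines.

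ATF4 RNA was abundant in both lines, at percentile 95.7 of the listed genes or higher in each group. In KG-1 with DMSO, ATF4 (ENSG00000128272.14, GRCh38 chromosome 22, 39519695 to 39522685, plus strand) stood at 260.14, 238.8 and 333.51 FPKM, and with ASLAN003 at 169.85, 169.13 and 144.86. In MOLM-14 it stood at 314.44, 318.35 and 315 FPKM with DMSO and at 196.25, 264.16 and 260.07 with ASLAN003. In both lines every treated library lay below every control library. The change was -0.77 ± 0.14 in KG-1 (log2 ± SE, limma adjusted p = 0.000923) and -0.41 ± 0.14 in MOLM-14 (adjusted p = 0.071), where it did not pass. It passed there after median centring (-0.56, adjusted p = 0.0234) and without KG-1 DMSO replicate 3 (adjusted p = 0.0492), and was -0.27 (adjusted p = 0.184) without MOLM-14 ASLAN003 replicate 1, the lowest treated library. The difference between the lines in this change was -0.36 ± 0.19 (KG-1 minus MOLM-14, adjusted p = 0.28). The annotation holds the pseudogenes ATF4P1, ATF4P2, ATF4P3 and ATF4P4, and the authors' estimation could have divided reads among copies that share sequence, which was not measured here.

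ATF5, a related stress transcription factor linked to the mitochondrial unfolded protein response, fell in KG-1. It stood there at 29.52, 28.61 and 33.93 FPKM with DMSO and at 12.9, 12.58 and 10.43 with ASLAN003 (ENSG00000169136.8, chromosome 19, 49928702 to 49933935, plus strand). Its MOLM-14 levels were 11.74, 10.65 and 7.92 FPKM with DMSO and 7.29, 8.04 and 7.76 with ASLAN003. The KG-1 groups were far apart, and those of MOLM-14 overlapped. The change was -1.29 ± 0.15 in KG-1 (adjusted p = 3.83e-05) and -0.34 ± 0.15 in MOLM-14 (adjusted p = 0.166), and the latter was called after median centring (adjusted p 0.05 when rounded). The difference between the lines was -0.95 ± 0.21 and passed (adjusted p = 0.0151). IL4I1 and NUP62 overlap ATF5 on the other strand, and the sources used here do not give the strand setting of the authors' counting. NUP62 did not pass in either line, and IL4I1, at 2.99 against 1.07 FPKM in KG-1, was higher with ASLAN003 (0.93 ± 0.34, adjusted p = 0.0488).

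DDIT3, which encodes the pro-apoptotic factor CHOP, did not pass in either line. It stood at 18.3, 15.51 and 21.51 FPKM in KG-1 DMSO and at 26.61, 27.97 and 17.68 in KG-1 ASLAN003 (ENSG00000175197.10, chromosome 12, 57516588 to 57521737, minus strand). The MOLM-14 libraries held 18.11, 17.68 and 14.32 FPKM with DMSO and 20.97, 20.77 and 17.62 with ASLAN003. A pair of treated KG-1 libraries lay above all controls and replicate 3 did not. The change was 0.35 ± 0.18 in KG-1 (adjusted p = 0.151) and 0.23 ± 0.18 in MOLM-14 (adjusted p = 0.437). Without KG-1 ASLAN003 replicate 3 the KG-1 change was 0.55 and passed (adjusted p = 0.0248). MBD6 and MARS overlap DDIT3 on the other strand; MBD6 was called higher in KG-1 (0.72 ± 0.19, adjusted p = 0.0116) and MARS did not pass.

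CEBPG, a C/EBP partner of ATF4, did not pass in either line. It stood at 29.75, 33.17 and 33.51 FPKM in KG-1 DMSO and at 34.03, 35.82 and 33.76 in KG-1 ASLAN003 (ENSG00000153879.8, chromosome 19, 33373330 to 33382686, plus strand). In MOLM-14 it stood at 30.75, 32 and 38.96 FPKM with DMSO and at 38.62, 39.29 and 47.27 with ASLAN003. The treated KG-1 libraries were all above their controls, by margins under 1 FPKM at the nearest pair, and the MOLM-14 groups overlapped. The log2 change was 0.10 ± 0.12 in KG-1 (adjusted p = 0.552) and 0.29 ± 0.12 in MOLM-14 (adjusted p = 0.126). The KG-1 value was -0.02 after median centring and -0.0057 after quantile normalization. The MOLM-14 value was 0.42 and passed (adjusted p = 0.0343) after rescaling libraries to the sum over all genes but histone, mitochondrial, ribosomal RNA and small RNA genes.

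TRIB3, a pseudokinase that ATF4 induces and that restrains ATF4 and AKT, was the only one of the 9 called higher. In KG-1 it stood at 33.37, 27.43 and 28.93 FPKM with DMSO and at 88.48, 92.12 and 85.88 with ASLAN003 (ENSG00000101255.10, chromosome 20, 362835 to 397559, plus strand). MOLM-14 levels were 16.49, 15.55 and 11.9 FPKM with DMSO and 9.69, 14.89 and 11.74 with ASLAN003. The treated KG-1 libraries were the highest of all 12, and the MOLM-14 groups overlapped. The change was 1.54 ± 0.16 in KG-1 (adjusted p = 1.29e-05), the 433rd highest of 13353 genes, and -0.26 ± 0.16 in MOLM-14 (adjusted p = 0.31). The difference between the lines was 1.81 ± 0.22 (adjusted p = 0.000582) and stayed called in all 21 alternatives (adjusted p 8.87e-05 to 0.00431).

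DDIT4, also called REDD1, encodes an inhibitor of the growth kinase complex mTORC1. In KG-1 it stood at 204.36, 175.48 and 220.14 FPKM with DMSO and at 43.79, 41.17 and 61.63 with ASLAN003 (ENSG00000168209.4, chromosome 10, 72273920 to 72276036, plus strand). In MOLM-14 it stood at 269.09, 243.48 and 252.62 FPKM with DMSO and at 106.01, 131.81 and 143.05 with ASLAN003. No treated library reached a control library in either line. DDIT4 fell by 2.03 ± 0.15 in KG-1 (adjusted p = 1.56e-06), the 31st lowest change of 13353, and by 1.01 ± 0.15 in MOLM-14 (adjusted p = 0.00149), the 153rd lowest. The difference between the lines was -1.02 ± 0.22 (adjusted p = 0.0116). Without MOLM-14 ASLAN003 replicate 1, its group's lowest library, DDIT4 remained called in MOLM-14. The antisense gene DDIT4-AS1 overlaps DDIT4 and was not analysed here.

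ASNS, asparagine synthetase, is a classic amino acid response gene. In KG-1 it stood at 19.89, 22.54 and 30.58 FPKM with DMSO and at 14.73, 17.5 and 13.83 with ASLAN003 (ENSG00000070669.16, chromosome 7, 97852118 to 97872542, minus strand). The levels in MOLM-14 were 27.09, 21.21 and 18.86 FPKM with DMSO and 12.58, 21.5 and 22.63 with ASLAN003. The KG-1 groups did not overlap, whereas in MOLM-14 ASLAN003 replicate 1 was low and the others lay among the controls. ASNS fell by 0.62 ± 0.22 in KG-1, just inside the threshold (adjusted p = 0.0491), and the MOLM-14 change was -0.26 ± 0.22 (adjusted p = 0.494), or -0.0051 without ASLAN003 replicate 1. The KG-1 call was lost in 12 of 22 alternatives, over which the adjusted p ran from 0.00491 to 0.191, the same rescaling among them (adjusted p = 0.108). It was lost without KG-1 ASLAN003 replicate 1 (0.121), 2 (0.0603) or 3 (0.137), KG-1 DMSO replicate 2 (0.0869) or 3 (0.191), and MOLM-14 DMSO replicate 2 (0.063) or 3 (0.0522), as adjusted p. The annotation holds the pseudogenes ASNSP1, ASNSP3, ASNSP4 and ASNSP6, and reads could likewise have been divided among copies that share sequence.

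STC2, a secreted stanniocalcin glycoprotein induced by stress, fell in both lines. In KG-1 it stood at 10.26, 8.07 and 12.07 FPKM with DMSO and at 1.44, 0.93 and 2.45 with ASLAN003 (ENSG00000113739.10, chromosome 5, 173314713 to 173329503, minus strand). In MOLM-14 it stood at 2.89, 3.79 and 2.71 FPKM with DMSO and at 0.19, 0.73 and 0.78 with ASLAN003. Groups did not overlap in either line, and treated MOLM-14 libraries were all under 1 FPKM. STC2 fell by 2.12 ± 0.25 in KG-1 (adjusted p = 4.16e-05), the 26th lowest change of 13353, and by 1.41 ± 0.25 in MOLM-14 (adjusted p = 0.00388), the 52nd lowest. With a pseudocount of 0.1 FPKM in place of 1, which compresses low levels less, the change was -2.66 in KG-1 (adjusted p = 0.000709) and -2.42 in MOLM-14 (adjusted p = 0.00523). The difference between the lines was -0.71 ± 0.36 (adjusted p = 0.245), and -0.24 (adjusted p = 0.864) with that pseudocount.

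CHAC1, an enzyme that degrades glutathione, had low levels, as did STC2. In KG-1 it stood at 2.25, 1.02 and 5.71 FPKM with DMSO and at 0.75, 0.63 and 0.16 with ASLAN003 (ENSG00000128965.11, chromosome 15, 40952962 to 40956519, plus strand). Levels in MOLM-14 were 2.86, 2.76 and 2.24 FPKM with DMSO and 1.19, 1.37 and 0.67 with ASLAN003. Groups did not overlap in either line, and the KG-1 controls spread widely around DMSO replicate 3. CHAC1 fell by 1.24 ± 0.35 in KG-1 (adjusted p = 0.0163), and the MOLM-14 change of -0.81 ± 0.35 did not pass (adjusted p = 0.154). The KG-1 call was lost without KG-1 DMSO replicate 3 (-0.78, adjusted p = 0.061) and without KG-1 ASLAN003 replicate 3 (-1.06, adjusted p = 0.0676), and the change was -2.19 with a pseudocount of 0.1 FPKM. The difference between the lines was -0.43 (adjusted p = 0.648).

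**Figure D2:**
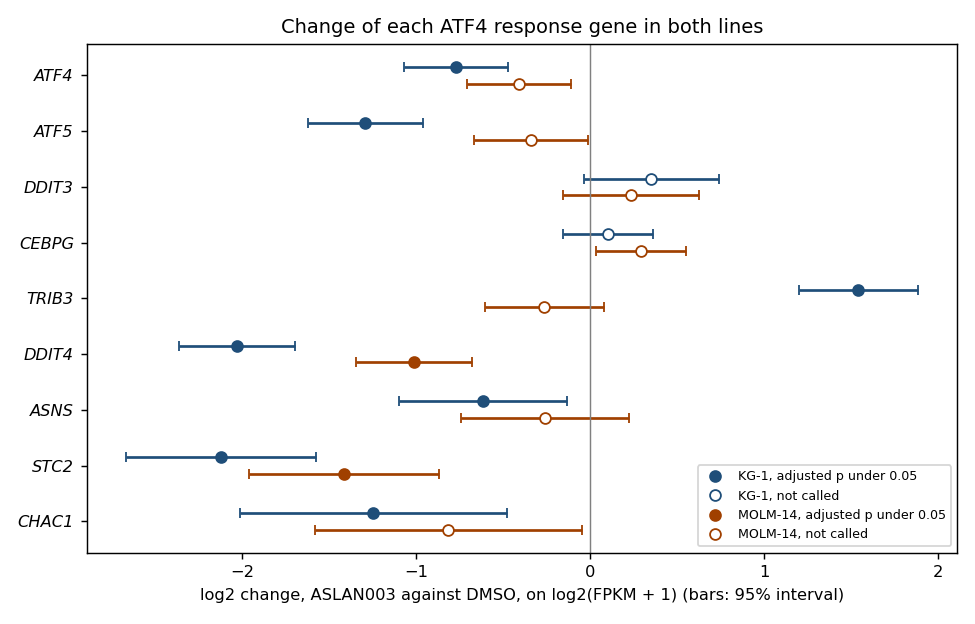
Log2 change of each gene with ASLAN003 against DMSO on log2(FPKM + 1), with 95% intervals of the limma fit (n = 3 libraries per group), in KG-1 (blue) and MOLM-14 (brown); filled points passed at an adjusted p under 0.05. TRIB3 lies at 1.54 in KG-1 and -0.26 in MOLM-14, and DDIT4 and STC2 are the genes filled below 0 in both lines.

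The lines' changes were set against each other by the difference of the 2 changes, which 9.94% of all tested genes passed (5.05% higher and 4.89% lower in KG-1 relative to MOLM-14). Of the 9 genes, TRIB3 passed with a higher value in KG-1, and ATF5 and DDIT4 with a lower one. These 3 calls were made in all 21 alternatives to which the difference was refitted. For ATF4, ASNS, DDIT3, STC2, CHAC1 and CEBPG the difference did not pass, which does not show that the lines changed alike.

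The lines already differed without the drug. In DMSO, ATF5 was higher in KG-1 than in MOLM-14 (30.7 ± 2.85 against 10.1 ± 1.97 FPKM, mean ± SD, n = 3, log2 difference 1.53 ± 0.15, limma adjusted p = 3.73e-06), as were TRIB3 (29.9 ± 3.09 against 14.6 ± 2.42 FPKM, 0.99 ± 0.16, adjusted p = 0.000207) and STC2 (10.1 ± 2.00 against 3.13 ± 0.579 FPKM, 1.42 ± 0.25, adjusted p = 0.000471). The other 6 genes did not pass, while 49.2% of all tested genes did (27.1% higher in KG-1, 22.1% lower). The libraries of the lines did not overlap for 4 of the 9 genes, against 63.3% of all tested genes (34.3% higher in KG-1, 29% lower). The fourth was DDIT4, lower in each KG-1 library (199.99 ± 22.6 against 255 ± 12.98 FPKM, -0.35 ± 0.15, adjusted p = 0.0725). DDIT4 passed in 5 of 22 alternatives. Among these were only the libraries compared (adjusted p = 0.00877) and a block for the replicate number (adjusted p = 0.0375). Another was libraries weighted by their spread, added after the data were seen (adjusted p = 0.0153). It also passed without KG-1 ASLAN003 replicate 3 (adjusted p = 0.0288) and without MOLM-14 ASLAN003 replicate 1 (adjusted p = 0.0435), where only the pooled spread changed.

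With ASLAN003, 5 of the 9 genes differed between the lines, 3 higher and 2 lower in KG-1, against 53.1% of all tested genes (27.9% higher, 25.2% lower). Non-overlapping libraries were seen for 6 of the 9, against 55.8% of all tested genes (29.3% higher in KG-1, 26.5% lower). TRIB3 stood at 88.8 ± 3.13 FPKM in KG-1 and 12.1 ± 2.62 in MOLM-14 (log2 difference 2.80 ± 0.16, adjusted p = 1.79e-08). ATF5 remained higher in KG-1 (11.97 ± 1.34 against 7.70 ± 0.379 FPKM, 0.57 ± 0.15, adjusted p = 0.00659). DDIT4 was lower in KG-1 (48.9 ± 11.1 against 127 ± 18.99 FPKM, -1.37 ± 0.15, adjusted p = 8.61e-06), and so was ATF4 (161 ± 14.2 against 240.2 ± 38.1 FPKM, -0.56 ± 0.14, adjusted p = 0.00399). STC2 was higher in KG-1 (1.61 ± 0.774 against 0.567 ± 0.327 FPKM, 0.72 ± 0.25, adjusted p = 0.0294). This call was lost in 6 alternatives: after quantile normalization (0.23, adjusted p = 0.484), with only the libraries compared (0.72, adjusted p = 0.0819), with libraries weighted by their spread, an alternative added after the data were seen (0.53, adjusted p = 0.131), and without KG-1 ASLAN003 replicate 1 (0.74, adjusted p = 0.0593) or 3 (0.49, adjusted p = 0.132) or MOLM-14 ASLAN003 replicate 1 (0.53, adjusted p = 0.0962). ASNS passed without MOLM-14 ASLAN003 replicate 1 (-0.50, adjusted p = 0.0408) and DDIT3 without KG-1 ASLAN003 replicate 3 (0.45, adjusted p = 0.0387).

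Ordered by mean level, ATF4 ran from MOLM-14 DMSO through KG-1 DMSO and MOLM-14 ASLAN003 to KG-1 ASLAN003, with overlapping libraries between neighbours among the first 3 groups and none between the last 2. DDIT4 had that same order with no overlap between any neighbours. TRIB3 ran from KG-1 ASLAN003 through KG-1 DMSO, each apart from its neighbour, to the MOLM-14 groups, which overlapped. STC2 ran from KG-1 DMSO through MOLM-14 DMSO and KG-1 ASLAN003 to MOLM-14 ASLAN003 with no overlap. For ASNS and DDIT3 every pair of neighbouring groups overlapped. ATF5 in KG-1 DMSO stood apart above the other groups, whose neighbours overlapped. CEBPG ran from MOLM-14 ASLAN003 through KG-1 ASLAN003 and MOLM-14 DMSO to KG-1 DMSO, with no overlap between the first of these and its neighbour and overlaps between the rest. CHAC1 ran from KG-1 DMSO through MOLM-14 DMSO and MOLM-14 ASLAN003 to KG-1 ASLAN003, with overlaps except between the MOLM-14 groups.

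Ratios between 2 genes of 1 library do not change where the whole library is multiplied by 1 factor, though they can under quantile normalization. They were chosen after the values had been seen and are given with no test. TRIB3 made up 10.996% ± 2.12 of the ATF4 level in KG-1 DMSO and 55.3% ± 3.67 in KG-1 ASLAN003 (mean ± SD, n = 3), against 4.64% ± 0.764 and 5.03% ± 0.567 in MOLM-14. DDIT4 made up 72.7% ± 6.31 and 30.9% ± 10.1 of ATF4 in KG-1 and 80.8% ± 4.57 and 53.0% ± 2.71 in MOLM-14. DDIT4 was thus lower relative to ATF4 in each treated library of either line.

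DDIT3 and CEBPG were higher relative to ATF4 in every treated library than in any control of their line. ATF4 itself was lower in every treated library, and neither DDIT3 nor CEBPG passed in either line. A gene with an unchanged level would therefore also be higher relative to ATF4. How many of all genes were so was not computed. DDIT3 made up 6.66% ± 0.325 and 14.8% ± 2.29 of ATF4 in KG-1 and 5.29% ± 0.650 and 8.44% ± 2.02 in MOLM-14. CEBPG made up 11.8% ± 1.95 and 21.5% ± 1.66 in KG-1 and 10.7% ± 1.42 and 17.6% ± 2.46 in MOLM-14. ATF5 went the other way in KG-1 (11.2% ± 0.917 and 7.41% ± 0.199) and overlapped in MOLM-14 (3.198% ± 0.623 and 3.25% ± 0.406). ASNS kept overlapping shares of ATF4, 8.75% ± 0.967 and 9.52% ± 0.838 in KG-1 and 7.09% ± 1.36 and 7.75% ± 1.19 in MOLM-14. TRIB3 was 15.03% ± 1.68 of the DDIT4 level in KG-1 DMSO and 188% ± 43.8 in KG-1 ASLAN003, against 5.74% ± 0.902 and 9.55% ± 1.58 in MOLM-14.

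**Figure D3:**
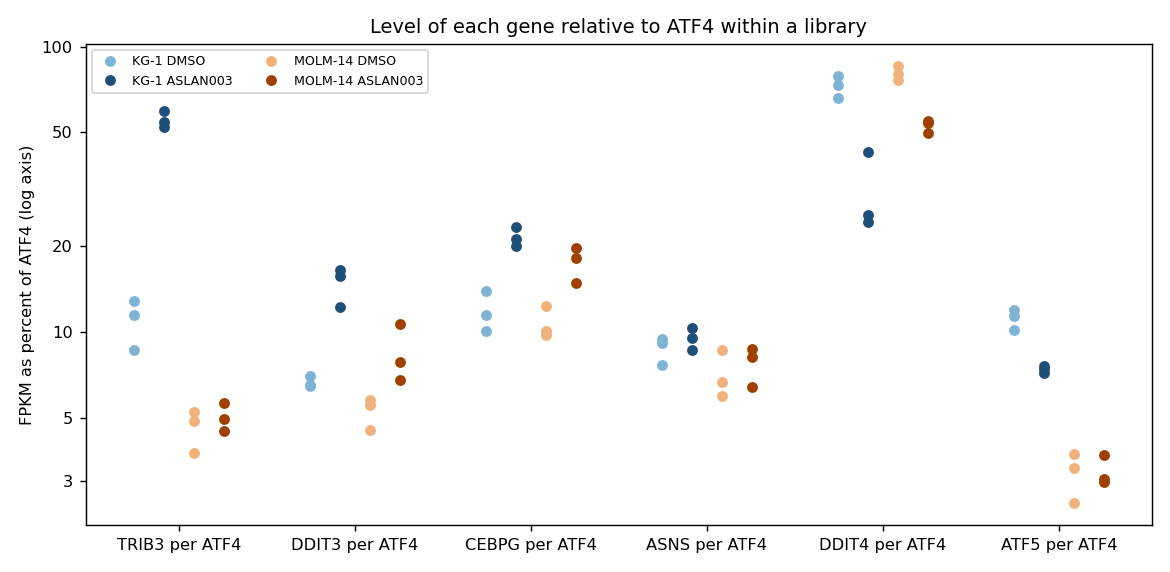
FPKM of 6 genes as a percent of ATF4 in the same library (log axis), 1 point per library, coloured by group. TRIB3 stands at 52.1% to 59.3% of ATF4 in KG-1 ASLAN003 and at most 12.8% elsewhere. The percentages of DDIT3 and CEBPG are higher with ASLAN003 in both lines, where ATF4 itself is lower.

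Genes around the pathway were taken from 11 lists. Of all tested genes, 33.7% were called in KG-1 (19.4% higher, 14.3% lower) and 13% in MOLM-14 (9.69% higher, 3.33% lower). For the difference between the lines 9.94% were called. A list count near these shares does not set the list apart from other genes. Of 12 genes for the kinases, the phosphatase and other regulators of eIF2, 1 fell in KG-1 (KIAA0141, which relays mitochondrial stress to the pathway, -0.52 ± 0.15, adjusted p = 0.02) and 1 rose in MOLM-14 (NCK1, an adaptor, 0.59 ± 0.14, adjusted p = 0.0161). Over the alternatives, 0 to 7 were called in KG-1 (0 without ASLAN003 replicate 2 or 3 or DMSO replicate 2) and 0 to 2 in MOLM-14 (0 without DMSO replicate 2). The eIF2 kinases EIF2AK1, EIF2AK2, EIF2AK3 and EIF2AK4 did not pass in either line. NCK1 (-0.84 ± 0.20, adjusted p = 0.0185) and EIF2AK4, the amino acid sensor GCN2 (-0.69 ± 0.19, adjusted p = 0.04), passed for the difference between the lines. Of these 2 calls none was made without KG-1 DMSO replicate 1, where the count was 0, and the count was 1 without any other single library except MOLM-14 ASLAN003 replicate 1 (3) or 2 (2).

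Enzymes of amino acid and one-carbon synthesis are other targets of ATF4. Of 12, 9 fell in KG-1 and none rose (7 to 11 called over the alternatives), with a median of -0.84. PHGDH, the entry enzyme of serine synthesis, went from 44.5 to 15.8 FPKM (-1.44 ± 0.18, adjusted p = 5.65e-05), and CBS, of transsulfuration, fell by 1.22 ± 0.30 (adjusted p = 0.00813). In MOLM-14, 3 of the 12 fell (CBS by 2.23 ± 0.30, PHGDH by 0.71 ± 0.18 and GPT2 by 0.68 ± 0.20) and the median was -0.44 (-0.28 without MOLM-14 ASLAN003 replicate 1). That count was 1 without MOLM-14 ASLAN003 replicate 1, MOLM-14 DMSO replicate 1 or MOLM-14 DMSO replicate 2, and 8 after median centring. No enzyme passed for the difference between the lines by limma (1 higher and 4 lower at an unadjusted p under 0.05), but 5 did without MOLM-14 ASLAN003 replicate 1, and 1 each without MOLM-14 ASLAN003 replicate 3 or DMSO replicate 1.

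Amino acid transporters were split. In KG-1, 5 of 9 fell (SLC43A1, SLC7A5, SLC7A1, SLC38A1 and SLC3A2) and 2 rose, SLC7A11, the cystine importer (0.743 to 3.27 FPKM, 1.31 ± 0.37, adjusted p = 0.0149), and SLC38A2 (0.39 ± 0.13, adjusted p = 0.0386). SLC7A5, the leucine importer, fell by 1.04 ± 0.16 (adjusted p = 0.000346) in KG-1 and by 0.68 ± 0.16 (adjusted p = 0.0162) in MOLM-14. In MOLM-14, 4 fell (SLC38A1, SLC7A5, SLC1A5 and SLC7A1) and SLC1A4 rose. The number called ran from 3 (without KG-1 DMSO replicate 2) to 8 in KG-1 and from 0 (only the MOLM-14 libraries fitted) to 6 in MOLM-14, where it was 1 without DMSO replicate 1; in KG-1 it was 4 without ASLAN003 replicate 3 or DMSO replicate 1. SLC43A1, a neutral amino acid carrier, passed for the difference between the lines (-1.10 ± 0.18, adjusted p = 0.00297), with 2 transporters called without MOLM-14 ASLAN003 replicate 3.

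Of 12 aminoacyl-tRNA synthetases, 5 fell in KG-1 (EPRS by 1.00 ± 0.17, adjusted p = 0.000515, then GARS, YARS, LARS and IARS). In MOLM-14 GARS fell by 0.71 ± 0.14 (adjusted p = 0.00567) and WARS rose by 0.48 ± 0.14 (adjusted p = 0.0406). The KG-1 count was 1 without DMSO replicate 3, 2 without ASLAN003 replicate 3 or after rescaling, and 3 without DMSO replicate 1 or ASLAN003 replicate 1. In MOLM-14, 0 to 3 were called over the alternatives, and 1 without ASLAN003 replicate 1 or any one of the DMSO libraries, or without KG-1 ASLAN003 replicate 1 or any one KG-1 DMSO library.

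Stress and growth control targets of ATF4 include cell death, autophagy and translation genes. In KG-1, 6 of 20 rose and 3 fell (median 0.32, 9 to 14 called over the alternatives). SQSTM1, an autophagy receptor (45.1 to 121 FPKM, 1.39 ± 0.17, adjusted p = 4.62e-05), and TNFRSF10B, the death receptor DR5 (11.5 to 31.1 FPKM, 1.36 ± 0.14, adjusted p = 1.58e-05), rose. EIF4EBP1, a repressor of translation, fell by 1.16 ± 0.15 (adjusted p = 8.54e-05), and NARS2 fell by 0.75 ± 0.17 (adjusted p = 0.00452). In MOLM-14, TXNIP (1.31 ± 0.23), CDKN1A (0.79 ± 0.21), TNFRSF10B and SQSTM1 rose. ADM2 fell by 0.89 ± 0.21 there, at low levels (1.34 to 0.27 FPKM). The MOLM-14 count was 3 without MOLM-14 ASLAN003 replicate 1 or DMSO replicate 2, 2 without DMSO replicate 1 and 1 to 7 over the alternatives. JMJD6, TNFRSF10B, MAP1LC3B and SQSTM1 passed for the difference between the lines with higher values in KG-1, and EIF4EBP1 with a lower one. The calls were lost in part or in whole without most single libraries: the count was 0 without KG-1 ASLAN003 replicate 2, KG-1 DMSO replicate 1 or 3, or MOLM-14 DMSO replicate 1 or 3, 1 without KG-1 ASLAN003 replicate 1, 2 without KG-1 DMSO replicate 2, MOLM-14 ASLAN003 replicate 3 or MOLM-14 DMSO replicate 2, and 3 without KG-1 ASLAN003 replicate 3. It was 7 without MOLM-14 ASLAN003 replicate 1, 3 with a replicate block and 1 with no trend or robust estimation.

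A further list held 18 genes named as partners and relatives of ATF4, most of them bZIP factors. Of these, 6 rose in KG-1 and CEBPA fell (-0.34 ± 0.09, adjusted p = 0.0113), with 5 to 11 called over the alternatives. FOS (1.56 ± 0.41, adjusted p = 0.0115) and MAFG (1.27 ± 0.15, adjusted p = 3.84e-05) had the largest rises there. In MOLM-14, JUN (1.25 ± 0.22, adjusted p = 0.00368), CEBPD (0.86 ± 0.24, adjusted p = 0.032), CREB1 and MAFG rose, and the count was 2 without any one of the DMSO libraries or after median centring. ATF3, another ATF4 target, did not pass in either line. CEBPE, a granulocyte factor (1.33 ± 0.27, adjusted p = 0.00896), and MAFG (0.72 ± 0.21, adjusted p = 0.0493) passed for the difference between the lines, and 1 was called in 10 of the 12 fits that left out a library (2 without KG-1 ASLAN003 replicate 1 or MOLM-14 ASLAN003 replicate 1).

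The arms of the unfolded protein response that run through XBP1 and ATF6 were represented by 19 genes. In KG-1, 6 rose and XBP1 fell by 0.50 ± 0.13 (adjusted p = 0.00898), against 33.7% of all tested genes called, 19.4% higher and 14.3% lower. Over the alternatives 5 to 11 were called, 11 after rescaling. SEL1L, of protein degradation (0.96 ± 0.17, adjusted p = 0.000813), and ERN1, the stress sensor IRE1 (0.81 ± 0.26, adjusted p = 0.0291), had the largest rises. In MOLM-14 XBP1 fell by 0.79 ± 0.13 (adjusted p = 0.00201) and no other gene passed (1 to 3 over the alternatives). SEL1L, HSPA5 and DNAJC3 passed for the difference between the lines with higher values in KG-1. The count was 2 in 9 of the 12 fits that left out a library, and 4 without MOLM-14 ASLAN003 replicate 3.

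Of 8 mitochondrial chaperones and proteases, 7 fell in KG-1, TRAP1 by 1.43 ± 0.15 (adjusted p = 1.42e-05) and HSPD1 by 0.70 ± 0.16 (adjusted p = 0.00395). The count was 3 after rescaling or without KG-1 DMSO replicate 1, and 4 without KG-1 DMSO replicate 2 or KG-1 ASLAN003 replicate 2 or 3. In MOLM-14 DNAJA3 fell by 0.42 ± 0.10 (adjusted p = 0.0167), with 0 to 4 called over the alternatives and 0 without DMSO replicate 1. TRAP1 passed for the difference between the lines (-0.99 ± 0.21, adjusted p = 0.0109), and 3 genes did without MOLM-14 ASLAN003 replicate 1.

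DDIT4 is also known to respond to hypoxia and glucocorticoids, and the remaining lists cover these and mTORC1. Of 13 hypoxia genes, 8 fell in KG-1 and 2 rose (6 called without KG-1 ASLAN003 replicate 1 or 2). ALDOC, a glycolytic aldolase, fell by 3.21 ± 0.50 (adjusted p = 0.00055) and BNIP3, a mitophagy receptor, by 2.20 ± 0.17 (adjusted p = 2.28e-06), whereas the glucose transporter SLC2A3 (2.20 ± 0.22, adjusted p = 1.16e-05) and HIF1A (0.63 ± 0.19, adjusted p = 0.0219) rose. In MOLM-14 BNIP3 (-1.25 ± 0.17, adjusted p = 0.000975) and PDK1 (-0.82 ± 0.21, adjusted p = 0.0216) fell and SLC2A1 rose (0.91 ± 0.25, adjusted p = 0.0297), with 1 called without MOLM-14 ASLAN003 replicate 1 or DMSO replicate 3. BNIP3 and DDIT4 were both called lower in both lines. Of the 13, 10 did not pass in MOLM-14, where 13% of all tested genes were called. The list median in MOLM-14 was -0.055, and -0.245 without MOLM-14 ASLAN003 replicate 1. For the difference between the lines, 2 of the 13 passed with higher values in KG-1 and 3 with lower ones. Fewer passed in 8 of the 12 fits that left out a library. Whether DDIT4 and BNIP3 fell for a shared reason was not tested.

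Of 15 genes of mTORC1 (the complex that DDIT4 restrains) and its regulators, 2 rose and 4 fell in KG-1. The sestrins SESN3 (0.58 ± 0.20, adjusted p = 0.042) and SESN1 (0.43 ± 0.14, adjusted p = 0.0363) rose. EIF4EBP1, DEPTOR (at low levels, 2.06 to 0.457 FPKM, -1.05 ± 0.27, adjusted p = 0.00963), MLST8 and MTOR fell. The count was 2 without KG-1 ASLAN003 replicate 2 and 3 without ASLAN003 replicate 1 or 3 or DMSO replicate 1 or 2. In MOLM-14 SESN3 rose by 0.67 ± 0.20 (adjusted p = 0.0443), with 0 to 3 called over the alternatives, and 0 without ASLAN003 replicate 2 or DMSO replicate 1 or 2. Of 7 glucocorticoid-responsive genes, ZBTB16 (-1.13 ± 0.22, adjusted p = 0.00172) and FKBP5 (-0.47 ± 0.13, adjusted p = 0.0139) fell in KG-1, with 1 called without ASLAN003 replicate 3 or DMSO replicate 2. None of the 7 passed in MOLM-14 by limma (1 higher at an unadjusted p under 0.05), with 0 to 1 called over the alternatives.

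**Figure D4:**
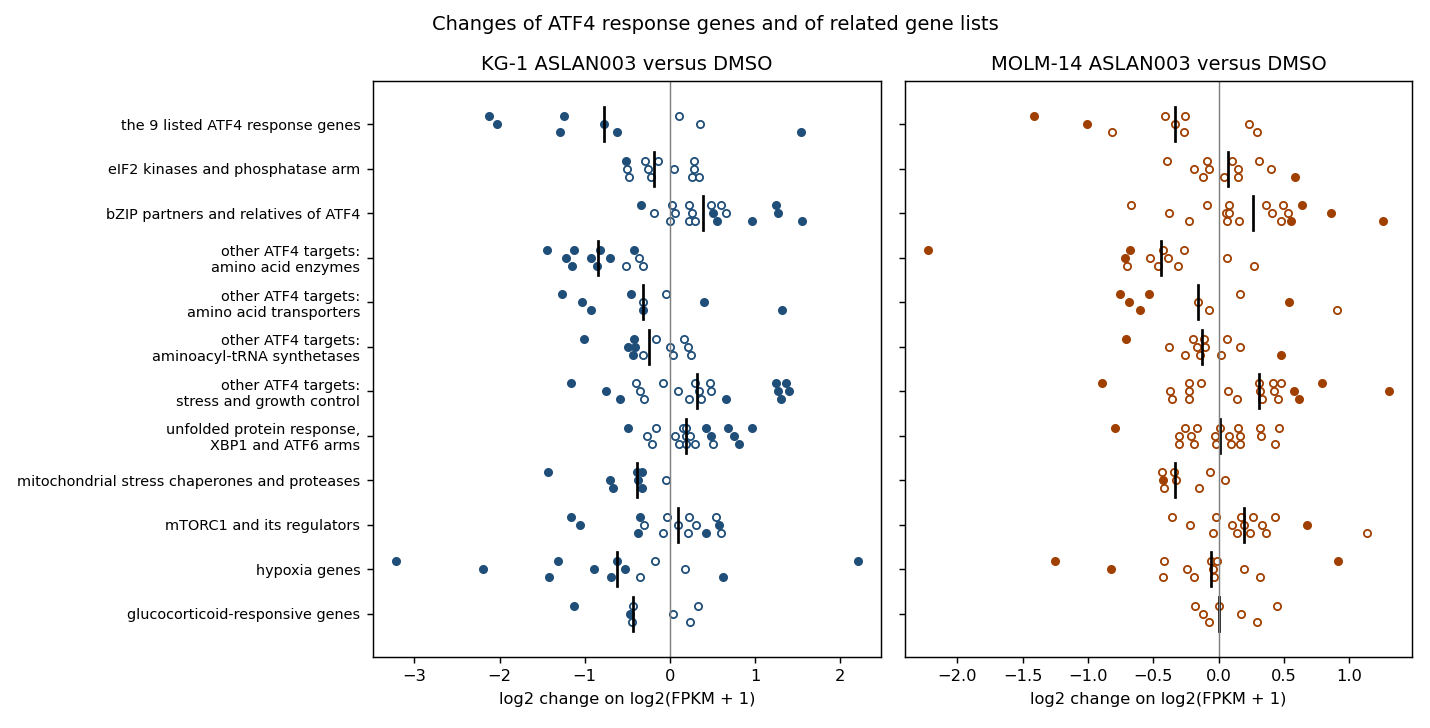
Log2 change with ASLAN003 of each tested gene of the 9 ATF4 response genes and the 11 related lists, KG-1 on the left and MOLM-14 on the right, with a bar at each list's median and filled points for genes that passed. Amino acid enzymes have a median of -0.84 in KG-1 and the stress and growth control targets one of 0.32.

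Profiles over the 12 libraries were compared by the root mean square difference of log2 values, each centred on its own mean, over 11043 genes with at least 5 FPKM in a group mean. Those most like ATF4 were RPS24 (0.11), MRPL45 (0.12), RPS15A (0.12), RP11-466H18.1 and ST3GAL4. RPS24 and RPS15A are cytosolic ribosomal protein genes and MRPL45 a mitochondrial one. Among the 5 most like DDIT4 were NPM3 (0.24), IMPDH2, FBL and POLR3G, and most like TRIB3 were C1orf127 (0.19), TMEM156 (0.25), GPX3, LAMA5 and SPSB1. In MOLM-14, C1orf127, GPX3, LAMA5 and SPSB1 had means under 1 FPKM, where log2(FPKM + 1) compresses differences. SPSB1 had means of 0.09 FPKM with DMSO and 0.28 with ASLAN003 there, and TRIB3 of 14.6 and 12.1. The root mean square differences describe 4 groups of 3 libraries and carry no test.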

How the data were processed

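The deposited table gives 1 value per gene and library, which from its values is log2(FPKM + 1) as made by the authors, with FPKM on steps of 0.01. Per the submitters' processing notes, STAR 2.4.2a, RSEM 1.2.25 and bcl2fastq 2.17.1.14 were used, and hg38 and GRCh38 are named. The sources used here do not give the annotation. FPKM is relative to the library, so abundant transcripts can move all others. Symbols turned into dates (20) were restored from identifiers, and no value column was left unmapped (0).

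The 13353 genes that reached 1 FPKM in 3 or more libraries were fitted with limma 3.58.1 in R 4.3.3 on log2(FPKM + 1), 4 group means over 12 libraries, eBayes with trend and robust estimation. Two-sided p-values were adjusted by Benjamini-Hochberg over all tested genes, with a threshold of 0.05. SE is that of the fit. Folds on this scale understate changes of low genes. No counts are given, so no counting interval was computed. Depth was estimated from steps of the low values: 76.8% to 83.2% of the 95 to 168 values used per library were whole to within 0.15 fragment at the depth that fitted best (30% for uniform values at a set depth). The limma fit, not the depth estimate, was tested on simulated data.

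The members and the lists were chosen with earlier results of these data known. Named are all members and, per list and line, up to 2 called genes with the largest rise and 2 with the largest fall. Other list genes were named after their values were seen, to complete small counts. Positions are from GENCODE 29 (GRCh38).

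Alternatives were a pseudocount of 0.1 FPKM, no filter, a filter at 5 FPKM, median centring, quantile normalization, rescaling to the sum without 191 histone, mitochondrial, ribosomal RNA and small RNA genes, no trend or robust estimation, only the libraries compared, a block for the replicate number, and 12 fits that each left out 1 library. Library weights were added as an alternative after the data were seen. One gene that the likeness rule selects is not reported here.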

Additional observations from a re-analysis of the deposited data

Results flagged for a closer look

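The ASLAN003 change differed between the lines for 3 of the 9 measured ATF4 response genes, by the test of the difference itself (KG-1 minus MOLM-14, limma, adjusted over 13353 genes). For TRIB3 the difference was 1.81 ± 0.22 (log2 ± SE, adjusted p = 0.000582), with each of 3 treated KG-1 libraries above each control. For DDIT4 it was -1.02 ± 0.22 (adjusted p = 0.0116), with falls in both lines and the larger one in KG-1. For ATF5 it was -0.95 ± 0.21 (adjusted p = 0.0151), from a level in DMSO that was higher in KG-1. Over the alternatives the adjusted p ran from 8.87e-05 to 0.00431 for TRIB3, from 0.0017 to 0.0391 for DDIT4 and from 0.0106 to 0.0463 for ATF5.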

How the results depend on the processing

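Each member value was refitted under 22 alternatives (21 for the difference between the lines). Of these, 932 values kept direction and side of the threshold, 20 lost a call, 13 gained one and 11 changed sign. The sign changes were all in values that did not pass. CEBPG in KG-1 was -0.019 after median centring and -0.0057 after quantile normalization. After rescaling to the sum without histone, mitochondrial, ribosomal RNA and small RNA genes, the DMSO difference between the lines was 0.072 for CHAC1 and 0.075 for CEBPG. Leaving out single libraries turned signs: the DMSO difference ran from -0.061 to 0.25 for ASNS (-0.0017 without MOLM-14 DMSO replicate 3), from -0.49 to 0.37 for CHAC1 (0.029 and 0.017 between) and from -0.13 to 0.032 for CEBPG, and the CHAC1 difference of the changes from -0.83 to 0.031. After median centring 4 members were called in MOLM-14 in place of 2. Median centring, quantile normalization and rescaling shifted the all-gene median change by -0.12, -0.0996 and 0.13 in KG-1 and by -0.15, -0.096 and 0.12 in MOLM-14. The share of higher calls in KG-1, 57.5%, was 42.7%, 46.1% and 72.7% under them, and that in MOLM-14, 74.5%, was 44.1%, 57.1% and 88.1%. The number of all genes called was 4494 in KG-1 (7014 with library weights), 1738 in MOLM-14 (346 with only its libraries fitted, 953 with weights) and 1327 for the difference (2226 with weights). Without single libraries it ran from 1068 to 2314 in MOLM-14 and from 736 to 2361 for the difference, the highest without MOLM-14 ASLAN003 replicate 1. CHAC1 has no value with the filter at 5 FPKM. Same-numbered DMSO and ASLAN003 libraries correlated in their deviations by 0.041, 0.020 and 0.032 in KG-1 and 0.1005, -0.0019 and 0.040 in MOLM-14. Differently numbered libraries correlated by -0.070 to 0.031 in KG-1 and by -0.083 to 0.049 in MOLM-14. The labels do not say whether the numbers pair the samples, and correlations over 3 libraries per group cannot settle it. With the replicate number as a block, 4400 genes were called in KG-1, 1598 in MOLM-14 and 1125 for the difference, ASNS in KG-1 had an adjusted p of 0.093 and DDIT4 between the lines in DMSO one of 0.0375. Of the counts and medians of related lists, 255 moved under an alternative and 1175 did not. Low levels limit precision: STC2 was under 1 FPKM in all 3 treated MOLM-14 libraries and CHAC1 in all 3 treated KG-1 libraries.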
